A study of Apis mellifera with 24 samples.

Results

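Putative piRNAs (PIWI-interacting RNAs, taken here as small RNA reads of 26 to 31 nt) were examined on the annotated retrotransposons of the honey bee, Apis mellifera, leaving out the R2 family. The entries chosen were those whose annotation placed them in class I, the retrotransposons, with a family other than R2. There were 658 such entries among 34760 annotated transposable element (TE) entries, and 1074 TE entries carried any family name. By family they comprised 263 Copia, 239 Bel-Pao, 85 Gypsy, 40 I, 22 Jockey and 5 DIRS entries, with 1 entry each of the 5S, Penelope, L1 and Tc1-Mariner names. The Tc1-Mariner entry, Mariner-29_HM, joined a DNA transposon name to a class I name and had no count in any tissue. An entry is a row of the annotation and not always a single insertion, since 180 of the 658 joined several loci and 153 of these lay on more than 1 scaffold.

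The 5 reproductive tissues had been profiled in 8 libraries of eggs, 8 of testes, 3 of spermatheca, 2 of semen and 3 of ovaries. Eggs were up to 24 h old and came from mated and from virgin queens, laid in worker and in drone cells. The virgin queens had been induced to lay with carbon dioxide. Testes came from drone pupae of a single colony, with 3 libraries at 24 h, 2 at 72 h and 3 at 144 h after pupation. Semen was pooled from mature drones of several colonies. The spermatheca (the queen's sperm store) and the ovaries were dissected from naturally mated laying queens. The deposited tables held 1 pooled column per tissue, so egg types and testis stages cannot be separated, no spread between libraries can be given and no difference was tested. The flow cells named in the labels differ between tissues, and tissue and sequencing run cannot be told apart. Cell type markers cannot be read from TE counts, so the tissue labels were not checked against them. The value of a pooled column cannot separate fewer cells of a type from less small RNA per cell.

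Retrotransposons copy themselves through an RNA intermediate. Copia, Gypsy and Bel-Pao elements carry long terminal repeats, whereas I, Jockey and L1 elements lack them. The R1 elements, which the annotation places in the I family, insert like R2 into the 28S ribosomal RNA genes of insects. piRNAs guide PIWI proteins to transposon transcripts in the germline, and a piRNA antisense to an element can pair with that element's transcript. Many piRNAs arise from clusters, which are long precursors rich in TE remnants and often transcribed along 1 genome strand. Antisense counts below are reads on the strand opposite the annotated element.

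The 658 entries collected 334590 counts in eggs, 26835 in testes, 21608 in spermatheca, 696 in semen and 167714 in ovaries. Against all counts on named families this was 9.90% in eggs, 9.44% in testes, 11.1% in spermatheca, 8.55% in semen and 7.78% in ovaries. The semen value was 44.6% without the leading named-family entry, 4.10% without entries under 100 bp and 1.30% in antisense counts. Of all TE counts the share was 0.377% in eggs, 2.33% in testes, 0.358% in spermatheca, 0.520% in semen and 0.291% in ovaries. Most TE counts therefore fell on entries with no family name. The share of named-family counts depended on overlap, because without entries that overlap another TE entry it was 70.7% in eggs, 6.61% in testes, 71.7% in spermatheca, 54.5% in semen and 69.7% in ovaries. A count of 3 was taken as the floor, and 159 entries were above it in eggs, 68 in testes, 112 in spermatheca, 13 in semen and 161 in ovaries. This was 24.2% of the entries in eggs, 10.3% in testes, 17.0% in spermatheca, 1.98% in semen and 24.5% in ovaries. Of all TE entries, 8.88% were above it in eggs, 4.97% in testes, 6.43% in spermatheca, 1.08% in semen and 9.12% in ovaries. No count was found on 351 entries in any tissue. A count of 0 allows a share of antisense TE counts of up to 3.24e-05% in eggs, 0.000415% in testes, 0.000359% in spermatheca, 0.00701% in semen and 4.64e-05% in ovaries. Intervals given below are 95% Wilson intervals, or for a fold the interval its 2 counts allow. They cover counting error alone and would differ if the pooled columns were means, and without molecular identifiers, copies made by PCR are counted as separate reads.

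Bel-Pao and I elements made up most of the retrotransposon counts. Bel-Pao entries held 57.3% of them in eggs, 39.4% in testes, 46.2% in spermatheca, 7.76% in semen and 53.0% in ovaries. I entries held 25.9% in eggs, 43.3% in testes, 30.9% in spermatheca, 56.2% in semen and 22.3% in ovaries. Gypsy counts were 34820 in eggs, 261 in testes, 3028 in spermatheca, 40 in semen and 24776 in ovaries. Copia, the family with the most entries, had 21155 counts in eggs, 3554 in testes, 1569 in spermatheca, 17 in semen and 15805 in ovaries. Testes therefore had few Gypsy counts beside their I counts. Jockey counts numbered 462 in eggs, 211 in testes, 186 in spermatheca, 1 in semen and 827 in ovaries. Nearly all of these lay on Crack-28_BF, a stretch of 72 bp inside a group of R1 entries. DIRS entries had no more than 9 counts in any tissue and the L1 entry had none.

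**Figure D1:**
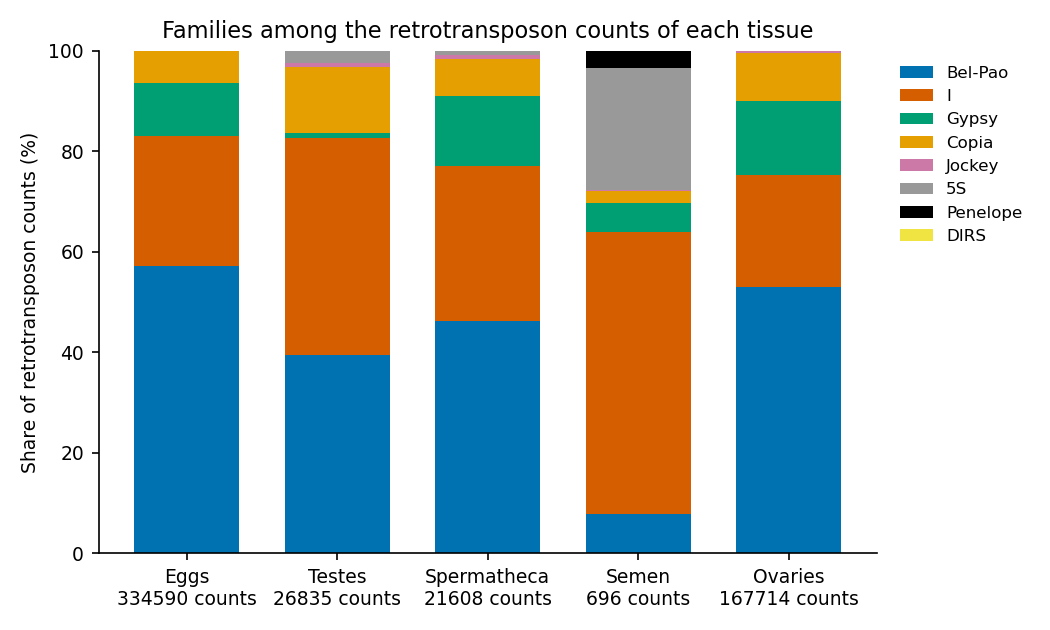
Share of the retrotransposon counts (y axis, percent) held by each family in eggs, testes, spermatheca, semen and ovaries (x axis, with the number of counts in each pooled column). Bel-Pao held 57.3% in eggs and 53.0% in ovaries, and I held 43.3% in testes and 56.2% in semen.

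The counts were concentrated on few entries. The entry with the most counts held 33.8% in eggs, 35.9% in testes, 28.2% in spermatheca, 53.4% in semen and 24.3% in ovaries. To reach 90% of the counts took 24 entries in eggs, 20 in testes, 31 in spermatheca, 6 in semen and 32 in ovaries. Of the entries above the floor, eggs and ovaries shared 144, which is 90.6% of those of eggs and 89.4% of those of ovaries. Testes and ovaries shared 60, or 88.2% of those of testes and 37.3% of those of ovaries. Across the entries shared by eggs and ovaries, Spearman's rho of the antisense counts was 0.97, and across the 60 shared by testes and ovaries it was 0.76. These are descriptions across entries, which can share reads and sequence. The overlaps were not computed over all TE entries, so they are not read as particular to the retrotransposons. Testes had 1152010 TE counts and ovaries 57645559, and the effect of depth on the overlap was not tested.

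Unplaced scaffolds of the Amel 4.5 assembly, those not assigned to a chromosome, carried most of the signal. The 482 entries found on unplaced scaffolds alone held 97.6% of the retrotransposon counts in eggs, 91.9% in testes, 95.2% in spermatheca, 65.4% in semen and 96.1% in ovaries. For all TE entries, the 10426 on unplaced scaffolds alone held 19.1% in eggs, 44.4% in testes, 18.1% in spermatheca, 68.6% in semen and 19.9% in ovaries. The 131 retrotransposon entries on chromosomes alone had 185 counts in eggs, 135 in testes, 199 in spermatheca, 70 in semen and 159 in ovaries. A gene was overlapped by 261 entries, of which 189 lay on the strand of the gene and 51 on the opposite strand. Entry length had a median of 125 bp and a range of 21 to 8066 bp, and 460 entries overlapped another TE entry by at least 1 base.

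Most counts on these retrotransposons were antisense, apart from those of semen. The semen exception rested on few entries, since the 658 entries together had 600 sense and 96 antisense counts there. R1B_DAn had 372 sense and 0 antisense counts in semen, 5S_DM had 164 and 5, and Coprina_Cc1 had 24 and 0. The antisense share was 88.5% in eggs (88.4 to 88.6), 88.0% in testes (87.6 to 88.4), 77.0% in spermatheca (76.4 to 77.5), 13.8% in semen (11.4 to 16.6) and 82.8% in ovaries (82.6 to 83.0). Over all TE entries it was 10.4% in eggs, 62.7% in testes, 13.9% in spermatheca, 32.0% in semen and 11.2% in ovaries. Named families as a whole were also mainly antisense, with 88.0% in eggs, 90.2% in testes, 79.5% in spermatheca, 90.4% in semen and 83.6% in ovaries, so outside semen the difference from all TE entries was not particular to the retrotransposons. Among DNA transposons the share of Tc1-Mariner was 79.6% in eggs, 78.9% in testes, 69.5% in spermatheca, 72.6% in semen and 78.8% in ovaries. The share differed between retrotransposon families. In Bel-Pao it was 93.9% in eggs, 95.5% in testes, 89.9% in spermatheca, 96.3% in semen and 90.2% in ovaries. In the I family it was 98.9% in eggs, 90.02% in testes, 87.1% in spermatheca, 4.86% in semen and 96.8% in ovaries. Gypsy and Copia were more evenly divided in the female tissues. The Gypsy share was 53.1% in eggs, 42.1% in testes, 25.9% in spermatheca, 7.50% in semen and 51.3% in ovaries. The Copia share was 55.4% in eggs, 77.9% in testes, 57.2% in spermatheca, 94.1% in semen and 57.0% in ovaries, the semen value resting on 17 counts. Without entries that overlapped another TE entry, the antisense share of all retrotransposon counts was 52.9% in eggs, 43.9% in testes, 26.3% in spermatheca, 17.8% in semen and 50.6% in ovaries.

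**Figure D2:**
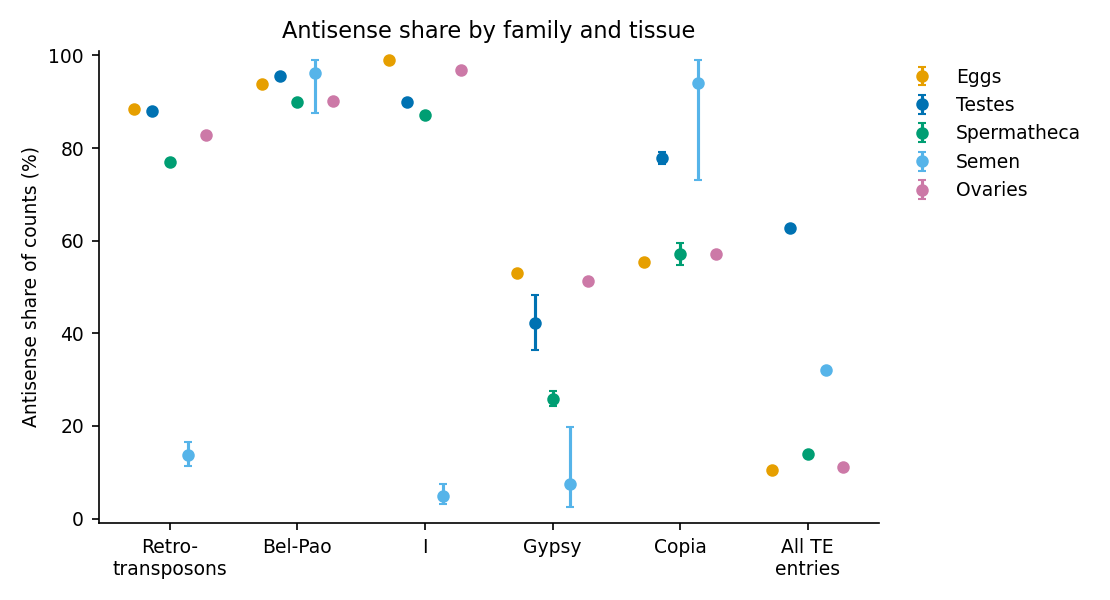
Antisense share of counts (y axis, percent) for the 658 retrotransposon entries, 4 of their families and all TE entries (x axis), with 1 point per tissue and 95% Wilson intervals of the pooled counts. Eggs (88.5%), testes (88.0%), spermatheca (77.0%) and ovaries (82.8%) lie above their values over all TE entries, and semen (13.8%) lies below its value of 32.0%; named families as a whole, not drawn, had 88.0% in eggs and 90.4% in semen.

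Single entries were seldom near an even split. Among entries with at least 10 counts, the antisense share was over 90% in 63 of 125 in eggs, 31 of 50 in testes, 43 of 83 in spermatheca, 1 of 5 in semen and 58 of 127 in ovaries. It was under 10% in 40 of these in eggs, 15 in testes, 30 in spermatheca, 4 in semen and 42 in ovaries. Over all TE entries with at least 10 counts, 41.0% were over 90% in eggs, 45.2% in testes, 44.3% in spermatheca, 46.0% in semen and 40.3% in ovaries. Under 10% were 38.1%, 33.5%, 37.9%, 44.3% and 39.1% of them in the same tissues. An uneven split was thus not particular to the retrotransposons. For the retrotransposon entries the side was mostly kept between tissues. Of 115 entries with at least 10 counts in both eggs and ovaries, 113 lay on the same side of 50%, and of 47 in both testes and ovaries 44 did. The matching shares over all TE entries were not computed. Counts above the floor in both directions were found on 61 entries in eggs, 13 in testes, 25 in spermatheca, 1 in semen and 59 in ovaries.

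For entries on 1 scaffold, the direction was set beside the genome strand of the reads on the other TE entries of that scaffold that overlapped none of the retrotransposon entries. In ovaries, 77 entries on 14 scaffolds could be compared, and 67 of them (87.0%) had most reads on the same genome strand as those neighbours. This share was not computed over all TE entries, so it is not read as particular to these entries. Entries of 1 scaffold are not independent. The 9 compared on GroupUn34 and the 10 on GroupUn175 each lay on 1 strand, and all matched. Of the 43 entries annotated against the strand most used by the neighbours, 40 were mainly antisense, and of the 34 annotated along it, 27 were mainly sense. In eggs 62 of 71 entries matched their neighbours, in testes 19 of 24, in spermatheca 44 of 49 and in semen 1 of 1. Many entries in both orientations lay on 2 scaffolds, GroupUn169 and GroupUn51. On GroupUn51, 7 of 13 entries matched their neighbours in ovaries and 9 of 14 in eggs. On GroupUn169, 10 entries on the plus strand and 4 on the minus strand had 0.536% of 12675 ovary counts on the genome plus strand, and the other TE entries had 0.224% there. BEL-7_SI-I, on the plus strand from 32167 to 32680, had 788 antisense counts in eggs, 1 in testes, 74 in spermatheca, 2 in semen and 426 in ovaries, with at most 4 sense counts in a tissue. BEL-4_DTa-I, on the minus strand of the same scaffold, had 2172 sense counts in eggs, 41 in testes, 111 in spermatheca, 0 in semen and 885 in ovaries, against 80, 0, 10, 0 and 44 antisense counts in the same tissues. GroupUn98 differed, with 84.3% of 4180 ovary counts on the plus strand for its retrotransposon entries and 12.5% for its other TE entries.

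**Figure D3:**
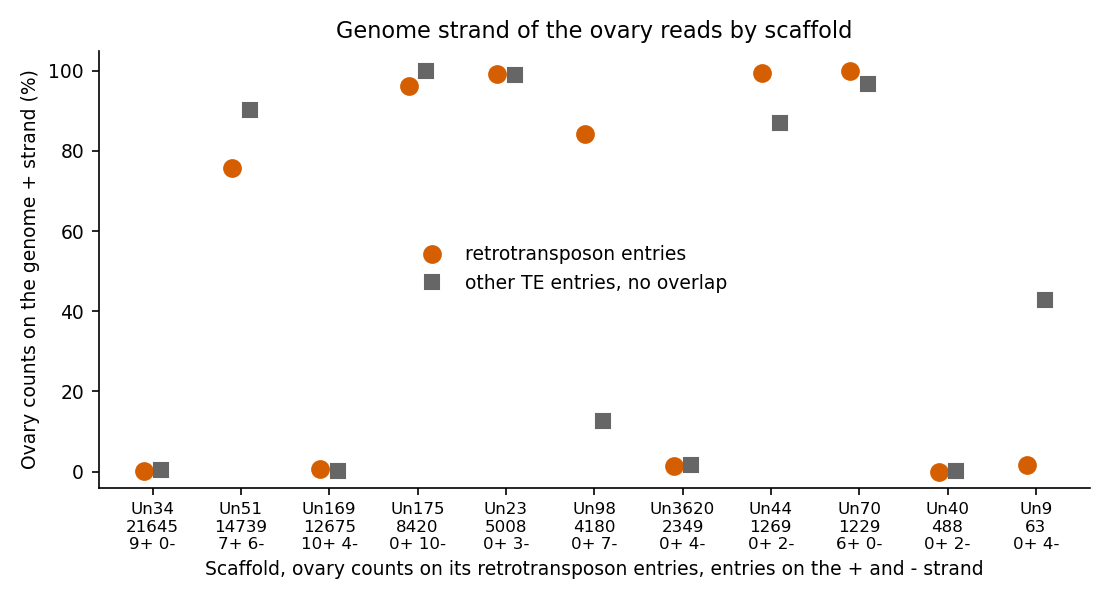
Share of ovary counts on the genome plus strand (y axis, percent) for scaffolds with at least 2 comparable entries (x axis, with counts and the number of entries on each strand), for retrotransposon entries (circles) and other TE entries without overlap (squares). The 2 points lie close together on GroupUn34, GroupUn169 and GroupUn175, and apart on GroupUn51 (75.7% and 90.3%), GroupUn98 (84.3% and 12.5%) and GroupUn9 (1.59% of 63 counts and 42.9%).

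Each tissue was then compared with ovaries in antisense counts, the direction that can target the element. Counts were scaled by TMM (trimmed mean of M values), an entry needed at least 5 counts in either tissue, and a difference over 5-fold was recorded. The 4 comparisons share the ovary column. In eggs 3 of 109 entries were over 5-fold higher (2.95% of all TE entries were) and 1 was lower (1.80% of all). In testes 6 of 102 were higher (18.0% of all) and 49 were lower (30.9% of all). In spermatheca 4 of 99 were higher (18.9% of all) and 1 was lower (1.67% of all). In semen 2 of 97 were higher (4.26% of all) and 50 were lower (29.4% of all). The share of lower entries in testes and semen was thus above that of all TE entries under TMM, and the share of higher entries in testes and spermatheca was below it. Ovary counts were not matched between the 2 sets. Most lower entries had 3 counts or fewer in the tested tissue, where the record depends on the ovary count. The excess of lower entries therefore cannot be told apart from a difference in ovary counts. The median log2 fold of the entries, with counts under 3 set to 3, was 0.27 in eggs (−0.04 over all TE entries), −2.21 in testes (−0.86 over all), −0.37 in spermatheca (0.41 over all) and −2.34 in semen (−0.0035 over all). An entry at or under the floor in the tested tissue takes a value set by its ovary count and the scaling factor. In semen 8 of the 97 entries were above the floor, so the median there is not a measured fold. Medians that rest on the floor differ between the 2 sets with their ovary counts, so these differences are not read as depletion. Scaling mattered. The log2 factor of testes over ovaries was −1.01 by TMM and −3.16 by the sum of antisense TE counts, so that scaling by the sum multiplies every ratio of testes to ovaries by 4.44. Scaled by that sum, 18 of 102 entries were higher in testes (29.2% of all TE entries) and 26 were lower (14.5% of all). In semen, where the log2 factor was −3.27 by TMM and −7.24 by the sum, 2 of 97 were higher (5.57% of all) and 9 were lower (9.48% of all), so the lower share there was near that of all TE entries. Also by the sum, 1 of 109 was higher in eggs (1.80% of all) and 1 was lower (4.44% of all), and in spermatheca 4 of 99 were higher (19.5% of all) and 1 was lower (0.912% of all). With unscaled counts no spermatheca entry of 99 was higher (6.84% of all) and 71 were lower (48.5% of all). An entry with no count can only be recorded as lower where ovaries had at least 14.3 counts for eggs, 30.3 for testes, 93.2 for spermatheca and 144.7 for semen.

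**Figure D4:**
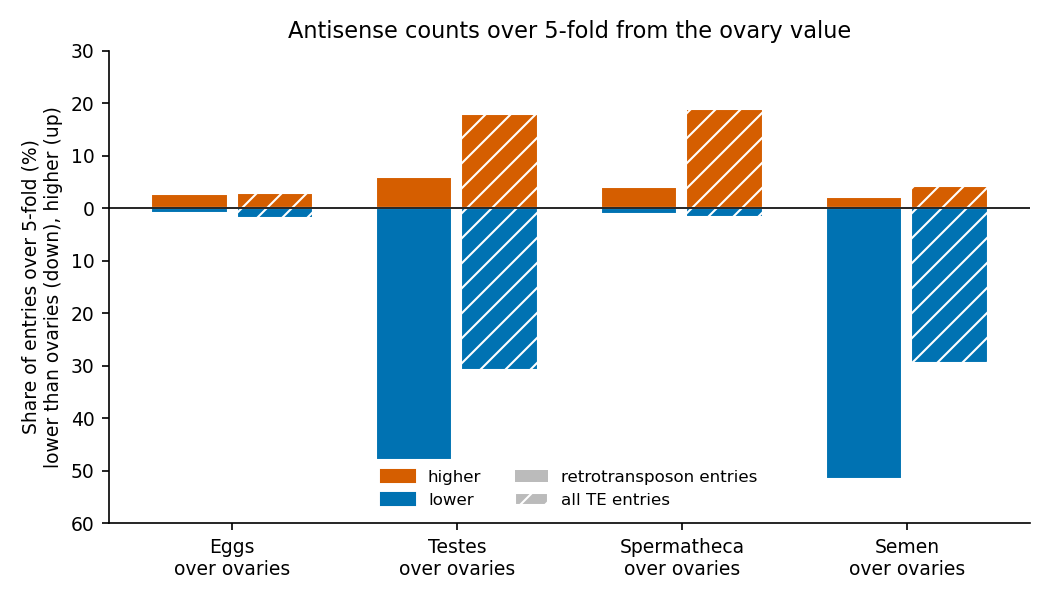
Share of tested entries (y axis, percent) over 5-fold higher (up) or lower (down) in antisense counts than in ovaries, for eggs, testes, spermatheca and semen (x axis), with plain bars for retrotransposon entries and hatched bars for all TE entries. In testes 49 of 102 retrotransposon entries were lower, against 30.9% of all TE entries.

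The families parted in testes. Gypsy was over 5-fold lower in 11 of 12 entries tested and Bel-Pao in 33 of 48 (30.9% of all TE entries), with none higher. The I family was lower in 1 of 13 and higher in none, and Copia was higher in 6 and lower in 4 of 28. Of all TE entries 18.0% were higher. Scaled by the sum of antisense TE counts, Gypsy was lower in 6 entries and Bel-Pao in 20, again with none higher, while 8 I entries and 10 Copia entries were higher and none lower. By that sum 14.5% of all TE entries were lower and 29.2% were higher. Of the 49 entries lower under TMM, 21 had 0 antisense counts in testes, 15 had 1 to 3 and 13 had more, against 31 to 18629 in ovaries. In summed antisense counts Gypsy had 110 in testes and 12712 in ovaries, which after scaling was 57.2-fold lower in testes. Bel-Pao had 10089 in testes and 80209 in ovaries, 3.94-fold lower in testes. Outside its leading entry, BEL-79_CQ-I, Bel-Pao had 447 in testes and 39476 in ovaries, 43.7-fold lower in testes. The I family had 10450 in testes and 36218 in ovaries, 1.72-fold lower in testes, and 7 Bel-Pao and 13 I entries were above the floor in testes. Scaled by the sum of antisense TE counts, Gypsy was 12.9-fold lower in testes and Bel-Pao without BEL-79_CQ-I 9.86-fold lower, while Bel-Pao as a whole was 1.13-fold higher and the I family 2.59-fold higher. Family and scaffold were not separated. On GroupUn23, TE entries that overlap no retrotransposon entry had 9907 unscaled counts in testes and 2406808 in ovaries. Those of GroupUn175 had 4040 and 293484, whereas those of GroupUn98 had 48550 and 2945. Whether the family differences follow the scaffold was not tested.

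BEL-79_CQ-I, a Bel-Pao entry, led the antisense counts in all 5 tissues. It joins 275 bp at 3 loci on the minus strand, from 27320 to 27457 on GroupUn175 and from 10124 to 10155 and 10846 to 10950 on GroupUn25. It had 113058 antisense counts in eggs, 9642 in testes, 6075 in spermatheca, 38 in semen and 40733 in ovaries, with at most 103 sense counts in a tissue. It held 91.3% of the Bel-Pao counts of testes. After scaling it was 2.65-fold higher in eggs (2.62 to 2.68), 2.09-fold lower in testes (2.05 to 2.14), 1.08-fold lower in spermatheca (1.05 to 1.11) and 111-fold lower in semen (81.0 to 153) than in ovaries. Scaled by the sum of antisense TE counts it was instead 2.12-fold higher in testes (2.07 to 2.17) and 1.15-fold higher in spermatheca (1.12 to 1.19). Per kilobase its antisense count was 411120 in eggs and 148120 in ovaries. In eggs the next entries per kilobase were R1D_NGi at 121978 and BEL-6_DWil-I at 97032.

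The Bel-Pao entries of GroupUn34 had next to no counts in testes. On this scaffold 11 Bel-Pao entries lay on the plus strand between 30944 and 33589, and 9 were above the floor in eggs and in ovaries. They had 32076 antisense counts in eggs, 1 in testes, 983 in spermatheca, 4 in semen and 21640 in ovaries, and 1, 0, 1, 0 and 7 sense counts in the same tissues. BEL-6_DWil-I, from 31366 to 31645, supplied 27169 of these in eggs, 0 in testes, 590 in spermatheca, 4 in semen and 17441 in ovaries. It was at least 2879-fold lower in testes and 452-fold lower in semen (176 to 1163) than in ovaries. The next entry, BEL-1_Cfl-I, began at the adjoining base and ran from 31646 to 31762. It had 990 antisense counts in eggs, 1 in testes, 106 in spermatheca, 0 in semen and 2066 in ovaries, so eggs were lower than ovaries here (2.19-fold, 2.03 to 2.36) and higher at its neighbour (1.49-fold, 1.46 to 1.51). Both directions held under the 4 scalings tried, but for eggs the DESeq2 factor was 1 and gave the same values as unscaled counts. The TE entries of GroupUn34 that overlap no retrotransposon entry had 9923 counts in eggs and 12207 in ovaries. With overlapping entries included, the other TE entries found on this scaffold alone had 15 counts in testes, 2054 in spermatheca and 0 in semen. They had 13204 in eggs and 22872 in ovaries. Low counts in testes and semen were thus not particular to the Bel-Pao entries of this scaffold.

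The 10 Bel-Pao entries found on GroupUn175 alone, on the minus strand between 27276 and 31318, were also lowest in testes and semen. BEL-79_CQ-I, with a locus inside this stretch and others on GroupUn25, is not among them. They had 9978 antisense counts in eggs, 52 in testes, 617 in spermatheca, 2 in semen and 8102 in ovaries, and 9 of the 10 tested against ovaries were over 5-fold lower in testes. On GroupUn3620, 12 Bel-Pao entries on the minus strand were read in the sense direction. Their sense counts were 4218 in eggs, 34 in testes, 247 in spermatheca, 0 in semen and 2318 in ovaries, with 84, 1, 6, 0 and 35 antisense. BEL-5_SI-I, which joins loci on several scaffolds, had 16014 antisense counts in eggs, 90 in testes, 709 in spermatheca, 2 in semen and 4036 in ovaries.

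The I family owed nearly all its counts to R1. The 23 entries named R1 had 85845 counts in eggs, 11339 in testes, 6610 in spermatheca, 387 in semen and 36931 in ovaries. R2, which shares the 28S target, had 758892 counts in eggs, 133617 in testes, 38266 in spermatheca, 6830 in semen and 299814 in ovaries. The antisense share of R1 was 98.9% in eggs, 89.8% in testes, 86.9% in spermatheca, 3.88% in semen (2.36 to 6.30) and 96.8% in ovaries. That of R2 was 98.9% in eggs, 97.1% in testes, 96.3% in spermatheca, 99.8% in semen (99.7 to 99.9) and 97.0% in ovaries. In semen, R1 had 15 antisense counts and R2 had 6816, and each rested on 1 entry. R1B_DAn, read in sense, gave 372 of the 387 R1 counts, and the other 15 were all antisense. LIN9_SM, read antisense, gave 6582 of the 6830 R2 counts.

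The R1 entry with the most antisense counts, an R1E_NGi entry of 12 loci and 1590 bp on GroupUn16 and GroupUn98, had 37447 in eggs, 532 in testes, 3626 in spermatheca, 4 in semen and 18629 in ovaries. It was 17.3-fold lower in testes than in ovaries (15.9 to 18.9) and was the I entry recorded as lower there. Scaled by the sum of antisense TE counts it was 3.91-fold lower (3.59 to 4.26) and no longer over 5-fold. The R1E_NGi entry on the minus strand of GroupUn2684, from 276 to 1012, had 6412 antisense counts in eggs, 3692 in testes, 484 in spermatheca, 3 in semen and 3044 in ovaries, which was 2.45-fold higher in testes (2.33 to 2.57). On GroupUn169 the R1E_NGi entry from 34756 to 35233 had 5880 in eggs, 1153 in testes, 491 in spermatheca, 0 in semen and 6668 in ovaries. R1D_NVi, from 34558 to 34755 there, had 4498 in eggs, 711 in testes, 231 in spermatheca, 0 in semen and 2114 in ovaries. BEL3-I_Dpse, a Bel-Pao entry of the same scaffold, had 877 in eggs, 1 in testes, 52 in spermatheca, 0 in semen and 390 in ovaries.

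All 3 entries over 5-fold higher in eggs than in ovaries were R1 entries on the minus strand of GroupUn98. R1D_NGi, 90 bp from 18354 to 18443, had 10978 antisense counts in eggs, 575 in testes, 94 in spermatheca, 0 in semen and 670 in ovaries, and was 15.6-fold higher in eggs (14.5 to 16.9). The R1E_NGi entry that ends 1 base before it, from 17927 to 18353, had 14161 in eggs, 1972 in testes, 457 in spermatheca, 4 in semen and 2137 in ovaries. Eggs were 6.32-fold above ovaries (6.04 to 6.62). R1B_DAn reached 5.01-fold with 21 antisense counts in eggs and 4 in ovaries (1.80 to 13.9). On the other side of R1D_NGi, Crack-28_BF, a Jockey entry from 18444 to 18515, had 324 in eggs, 207 in testes, 174 in spermatheca, 1 in semen and 702 in ovaries. It was 2.27-fold lower in eggs than in ovaries (1.99 to 2.59), the opposite direction to the entry it adjoins. The direction held under each of the 4 scalings tried, of which DESeq2 size factors and unscaled counts were the same for eggs. Scaled by the sum of antisense TE counts, R1D_NGi alone remained over 5-fold higher in eggs. Apart from R1B_DAn, which overlaps no gene model, these entries overlap GB43329 on its own strand, and whether reads were shared with repeated copies elsewhere was not tested.

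**Figure D5:**
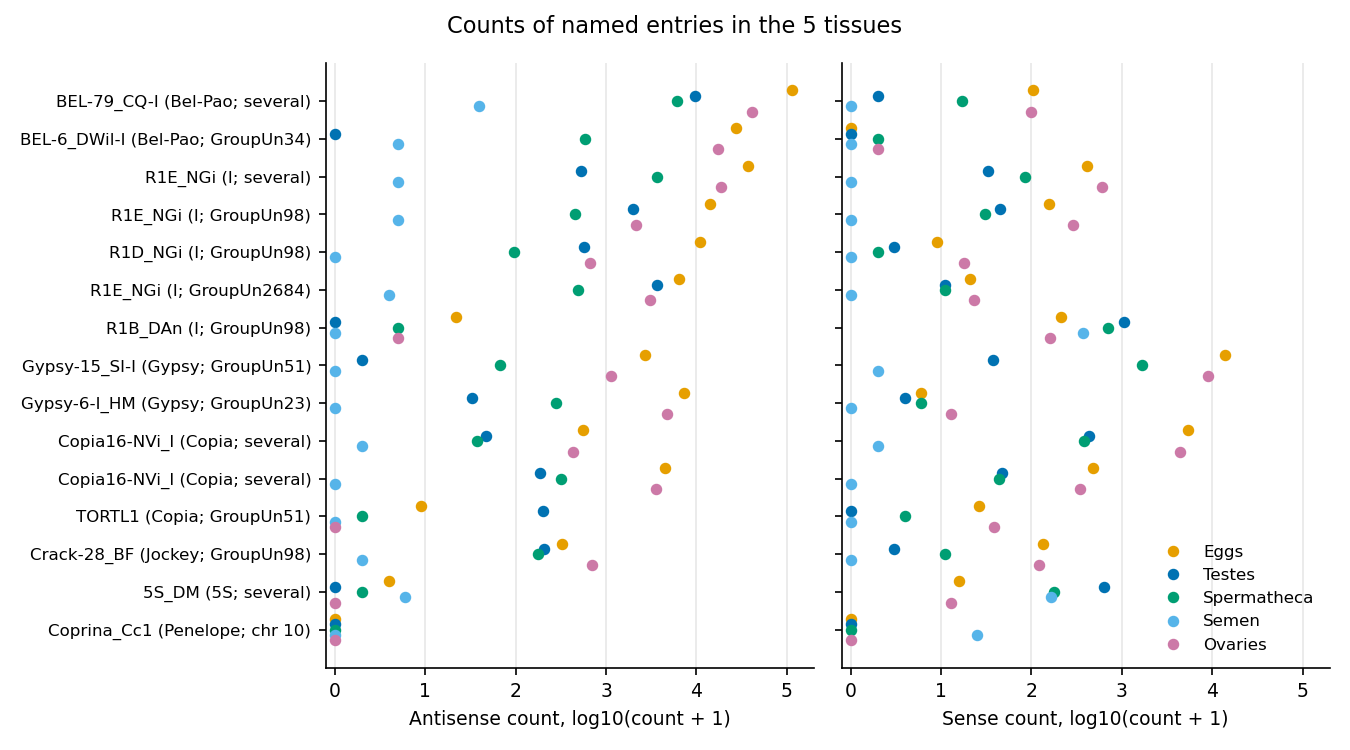
Antisense (left) and sense (right) counts of 15 named entries (y axis) on a log10(count + 1) scale (x axis), with 1 point per tissue from the pooled column. BEL-6_DWil-I has 0 antisense counts in testes and 17441 in ovaries, TORTL1 has 200 in testes and 0 in ovaries, and R1B_DAn and 5S_DM lie to the right in the sense panel.

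R1B_DAn was read mainly in sense, as was an R1D_NLo entry on the same scaffold, from 17876 to 17926, which had 69 sense counts in eggs, 9 in testes, 18 in spermatheca, 0 in semen and 41 in ovaries and no antisense count. The R1B_DAn entry of 63 bp lay on the minus strand of GroupUn98 from 21744 to 21806, with 2 bases between it and an R2Amel locus on the same strand from 21809 to 22232. It had 210 sense counts in eggs, 1045 in testes, 708 in spermatheca, 372 in semen and 160 in ovaries, against 21, 0, 4, 0 and 4 antisense counts in the same tissues. In semen it was the leading entry, with 53.4% of all retrotransposon counts. Other TE entries of GroupUn98 that overlap no retrotransposon entry had 87272 counts in semen, with 0.00229% on the plus strand. Those entries had 48550 counts in testes, 26362 in spermatheca, 4042 in eggs and 2945 in ovaries. Sense reads of R1B_DAn lie on the minus strand too, and whether they belong to the same signal was not tested. Its sense counts, scaled by TMM, were 18.4-fold higher in testes (15.5 to 21.7) and 28.4-fold higher in spermatheca (23.9 to 33.7) than in ovaries. In semen they were 21.6-fold higher (17.95 to 25.99). No other scaling was tried on sense counts, and the intervals do not cover the choice of scaling.

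In sense counts, which were scaled by TMM alone, 4 of 122 entries were over 5-fold higher in eggs than in ovaries (3.42% of all TE entries). A further entry, 1 of 122, was lower (2.24% of all). How far the sense folds depend on the scaling was not tested. In testes 3 of 112 were higher (17.5% of all) and 33 lower (27.3% of all), in spermatheca 8 of 112 were higher (16.0% of all) and none lower (0.920% of all), and in semen 5 of 112 were higher (4.27% of all) and 24 lower (29.2% of all). The entry 5S_DM, named after the 5S ribosomal RNA and joining 43 loci of 102 to 122 bp, was among the higher ones in testes, spermatheca and semen. It had 15 sense counts in eggs, 640 in testes, 178 in spermatheca, 164 in semen and 12 in ovaries, with 3, 0, 1, 5 and 0 antisense. Whether its loci are 5S ribosomal RNA genes rather than retrotransposon copies was not tested. The Penelope entry Coprina_Cc1, at 8340318 to 8340464 of chromosome 10, had 24 sense counts in semen and 0 in eggs, testes, spermatheca and ovaries. It was at least 74.3-fold higher in semen than in ovaries, from 1 pooled column and with no other TE entry within 10000 bp. Together R1B_DAn, 5S_DM and BEL-79_CQ-I were the 3 leading entries of semen, with 83.2% of its 696 counts. The 4 sense entries higher in eggs were all Bel-Pao, led by BEL-208_AA-I with 691 counts in eggs, 12 in testes, 6 in spermatheca, 0 in semen and 130 in ovaries. Eggs were 5.35-fold above ovaries there (4.44 to 6.45).

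In eggs and ovaries, Gypsy counts came from 2 scaffolds for the most part. On GroupUn51, 10 Gypsy entries lay on the plus strand between 3303 and 5039, overlapping the gene model GB42108 on its strand. Their sense counts were 15324 in eggs, 42 in testes, 1979 in spermatheca, 1 in semen and 10990 in ovaries. Their antisense counts were 5536 in eggs, 1 in testes, 260 in spermatheca, 0 in semen and 3264 in ovaries. Reads of both directions were thus present in eggs, spermatheca and ovaries and were close to absent in testes and semen. Gypsy-15_SI-I, in pieces from 3555 to 4918, had 13821 sense counts in eggs, 37 in testes, 1650 in spermatheca, 1 in semen and 8945 in ovaries, and 2713, 1, 66, 0 and 1123 antisense counts. The antisense fold of testes below ovaries was 556 (98.1 to 3152). Gypsy-7_SI-I, of 33 bp in the same group, was the entry recorded as lower in spermatheca, with 3 antisense counts in spermatheca and 126 in ovaries (6.76-fold lower, 2.27 to 20.1). On GroupUn23, Gypsy-6-I_HM, on the minus strand from 59884 to 60381, was read antisense, with 7224 counts in eggs, 32 in testes, 276 in spermatheca, 0 in semen and 4745 in ovaries. It was 73.4-fold lower in testes (52.0 to 104) and at least 164-fold lower in semen than in ovaries.

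Further along the same GroupUn51 scaffold, 22 Copia entries on the minus strand, between 35644 and 42147, had the opposite order of testes and ovaries. Their antisense counts were 229 in eggs, 609 in testes, 18 in spermatheca, 1 in semen and 184 in ovaries. Their sense counts were 752 in eggs, 0 in testes, 25 in spermatheca, 0 in semen and 327 in ovaries. Testes reads there were therefore all antisense, while those of eggs and ovaries ran in both directions. TORTL1, 93 bp from 38253 to 38345, had 8 antisense counts in eggs, 200 in testes, 1 in spermatheca, 0 in semen and 0 in ovaries. Testes were at least 135-fold above ovaries. Copia-6_SI-I, from 37554 to 37891, had 51 in eggs, 281 in testes, 2 in spermatheca, 1 in semen and 38 in ovaries. Testes were 14.9-fold above ovaries (10.7 to 20.9). Copia14-NVi_I had 71 in testes and 10 in ovaries, and Copia-56_SB-I had 46 in testes and 1 in ovaries (92.9-fold higher in testes, 16.2 to 534). These 4 are among the 6 Copia entries higher in testes, and all overlap the gene model GB42107 on its strand.

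Other Copia counts were spread over entries of many loci. The Copia16-NVi_I entry of 5 loci on 5 unplaced scaffolds was read mainly in sense, with 5452 sense counts in eggs, 435 in testes, 384 in spermatheca, 1 in semen and 4414 in ovaries. A second entry of the same name, of 56 loci and 8066 bp, was read mainly antisense, with 4453 antisense counts in eggs, 186 in testes, 314 in spermatheca, 0 in semen and 3571 in ovaries. The second was 9.51-fold lower in testes (8.20 to 11.0) and at least 123-fold lower in semen than in ovaries. On GroupUn44 another entry of the name, from 44619 to 45000 on the minus strand, had 1654 in eggs, 497 in testes, 197 in spermatheca, 1 in semen and 1159 in ovaries. All 4 antisense entries higher in spermatheca were Copia with 5 to 11 counts there. Copia-1_ST-LTR, on chromosome 1 from 14427330 to 14428396, had 6 in eggs, 0 in testes, 11 in spermatheca, 8 in semen and 5 in ovaries, which was 13.7-fold higher in spermatheca (4.96 to 37.7) and 15.4-fold higher in semen (5.31 to 44.8) than in ovaries. With unscaled counts it was not over 5-fold in either. In eggs the entry recorded as lower, Copia-1_RP-I, had 2 antisense counts in eggs and 15 in ovaries (7.86-fold lower, 2.004 to 30.8).

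Semen was limited by its depth. It had 96 antisense counts on the 658 entries, and 8 of the 97 entries tested against ovaries were above the floor. Of the 50 recorded as lower, 30 had 0 counts in semen, 14 had 1 to 3 and 6 had more, against 145 to 40733 in ovaries. A count of 0 in semen allows up to 0.431% of its retrotransposon counts.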

How the data were processed

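Small RNA libraries of 5 tissues were prepared with the Illumina TruSeq small RNA kit and mapped by the authors to Amel 4.5 with CLC Genomics. Bowtie 1.2.3 is listed in the submitters' processing notes. The authors removed reads annotated as other RNAs and reads outside 26 to 31 nt, and counted reads on TEs and genes with featureCounts. The deposited values are raw counts, sense and antisense, in 1 pooled column per tissue. Whether columns were summed or averaged, and how reads mapping to several places were treated, are not given in the sources used here. Reads that map to several copies or overlapping entries can be shared between entries, so entries are not independent.

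Planned tests between libraries could not be run on pooled columns, and no p-value is given. The members and lists were chosen with earlier results of these data known. Families were read from entry names. Named entries were the 2 with the most counts of each family (1 in families under 5 entries), those with at least 10% of a tissue's member counts, and up to 2 per comparison with the greatest difference upwards and up to 2 downwards. Entries named beyond these were chosen after their values were seen. Members within 5000 bp were joined into groups. The strand comparison required at least 10 counts on an entry and 100 on its neighbours. Antisense counts were scaled with TMM of edgeR 4.0.16 in R 4.3.3, for entries with at least 5 counts in either tissue, at a fold over 5. A fold against 0 was computed against 3 counts in that column. DESeq2 1.42.0 size factors, the sum of antisense TE counts, unscaled counts, no filter and sense counts were alternatives. Sense counts were scaled with TMM alone. On simulated data with 10-fold changes, 193 of 200 were recovered for eggs, 197 of 200 for testes, 199 of 200 for spermatheca and 66 of 66 for semen, each over 34760 entries. The changed entries were drawn only from those expected to be well above the floor in the tested tissue. Recovery near the floor, where most lower entries of testes and semen lay, was therefore not tested. False records among unchanged entries are not given. Shares were computed in Python 3.11.15 with pandas 2.3.3. Depth was 88755771 TE counts in eggs, 1152010 in testes, 6030354 in spermatheca, 133767 in semen and 57645559 in ovaries. No genome of the build was used, so no sequence is shown.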

Additional observations from a re-analysis of the deposited data

How the results depend on the processing

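No paired analysis was possible because the pooled columns carry no replicate numbers, and for the same reason no library could be left out. The member share of named-family counts without the leading named-family entry was 11.2% in eggs, 11.2% in testes, 12.2% in spermatheca, 44.6% in semen and 9.16% in ovaries. Without entries that overlap another TE entry it was 70.7% in eggs, 6.61% in testes, 71.7% in spermatheca, 54.5% in semen and 69.7% in ovaries, by the loss of most named-family counts. In antisense counts it was 9.96% in eggs, 9.21% in testes, 10.7% in spermatheca, 1.30% in semen and 7.71% in ovaries. Without entries under 100 bp it was 9.42% in eggs, 8.68% in testes, 10.4% in spermatheca, 4.10% in semen and 7.47% in ovaries.

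The antisense share without the leading entry was 82.7% in eggs, 81.3% in testes, 68.0% in spermatheca, 29.6% in semen and 77.3% in ovaries. Without entries that overlap another TE entry it was 52.9% in eggs, 43.9% in testes, 26.3% in spermatheca, 17.8% in semen and 50.6% in ovaries, and the cause was not tested. The median over entries with at least 10 counts was 90.3% in eggs, 98.4% in testes, 92.3% in spermatheca, 0% in semen and 85.7% in ovaries. Without entries that overlap a gene it was 95.8% in eggs, 92.9% in testes, 87.3% in spermatheca and 94.1% in ovaries.

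Scaled by the sum of antisense TE counts, 1 entry was over 5-fold higher in eggs, 18 were higher and 26 lower in testes, and 9 were lower in semen. The log2 fold of the Copia16-NVi_I entry of 5 loci in semen turned to 0.070 with that scaling and with its semen count of 1 set to the floor of 3. With the count of 1 it stayed 2.86-fold lower (0.504 to 16.2). With DESeq2 size factors 0 entries were lower in eggs and 3 in spermatheca. With unscaled counts 0 were lower in eggs, 0 were higher and 71 lower in spermatheca, and 0 were higher in semen. In sense counts 3 were higher in testes, 8 higher and 0 lower in spermatheca, and 5 higher and 24 lower in semen. Dropping the filter on low counts moved no count of entries by more than 1.5 times. At a minimum of 1 count, 129 entries were present in testes, 184 in spermatheca, 41 in semen and 249 in ovaries, and at a minimum of 10 counts 5 were present in semen. Named entries had 31 comparisons with a difference over 5-fold, and of their 93 values under the 3 other scalings, 75 kept direction and stayed over 5-fold, 17 kept direction but not the 5-fold difference and 1 reversed. For eggs the DESeq2 factor was 1, so its values repeat the unscaled ones in these totals. Of the 37 other comparisons of named entries, 14 changed direction under 1 of the 4 scalings. Depth limited semen most, with 96 antisense counts on these entries.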
